A study of Mus musculus with 12 samples.

Results

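The genes described here encode the proteasome, the protease complex that degrades ubiquitin-tagged proteins, with its assembly chaperones and activators. They were taken from the deposited gene table as the protein-coding genes whose mouse symbol begins with Psma, Psmb, Psmc, Psmd, Psme, Psmf or Psmg followed by a number. The rule found 50 of 54232 genes. Of these, 48 passed the filter on low counts. Psma8, the alpha subunit of the testis, and Psmb11, the catalytic subunit of the thymic cortex, did not, and reached at most 0.441 and 0.331 CPM (read counts scaled to library size) in any library. The 48 comprise 7 subunits of the alpha ring, 4 noncatalytic beta subunits, the 3 constitutive catalytic beta subunits, the 3 immunoproteasome catalytic subunits, 6 ATPases and 11 non-ATPases of the regulatory particle, 3 chaperones of the regulatory particle, 4 chaperones of the core particle and 6 activators or regulators. The first 3 of these classes together with the ATPases and non-ATPases are called the constitutive set (31 genes). Psmc3ip also met the symbol rule, although its product is a meiotic recombination factor that was named after its binding to an ATPase and is not a proteasome subunit.

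Total RNA was sequenced from naive CD4+ T cells of mouse spleen and pLN, in 6 groups of 2 libraries. Ddx55-KO and WT cells were taken at 0 h, and after 8 h and 24 h on plates coated with antibodies to CD28, a costimulatory receptor (2.5 ug/ml), and to CD3 of the T cell receptor complex (5 ug/ml). Ddx55 is a DEAD-box RNA helicase. The labels say neither how the deletion was made and in which cells of the mouse, nor whether libraries of a group are separate mice, so p-values measure the spread between these libraries, which may be technical. Gene counts per library ran from 16810375 to 19126498.

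The core particle is a barrel of stacked alpha and beta rings, in which 3 beta subunits carry the proteolytic sites. The regulatory particle caps the barrel, binds and deubiquitinates substrates, and unfolds them with its ring of ATPases. In lymphoid cells and under interferon, Psmb8, Psmb9 and Psmb10 are built into new particles in place of Psmb5, Psmb6 and Psmb7, which gives the immunoproteasome, known for making peptides that fit MHC class I molecules. The transcription factor NRF1, encoded by Nfe2l1, is known to turn on the constitutive subunit genes together through antioxidant response elements when proteasome capacity is short, while the immunoproteasome genes and Psme1 and Psme2 are known as targets of interferon, acting through IRF and GAS elements.

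Promoters are shown for 4 members whose windows hold a motif from these classes of control. They are Psmb5 and Psmb6 as constitutive catalytic subunits, Psmb8 as the immunoproteasome counterpart of Psmb5, and Psme1 as an interferon-inducible activator. Other members of their classes lack these motifs, as given below. Each sequence runs 5' to 3' on the strand of the gene over 300 bases, 250 before and 50 after the RefSeq start, in the GRCm38.p6 assembly. Capitals mark the antioxidant response core (TGACNNNGC) in Psmb5 (chr14:54617946-54618245, minus strand) and Psmb6 (chr11:70525107-70525406, plus strand), the GAS motif (TTCNNNGAA) in Psmb8 (chr17:34197945-34198244, plus strand) and the IRF motif (a pair of GAAA blocks, present here as the reverse complement) in Psme1 (chr14:55578244-55578543, plus strand).
Psmb5: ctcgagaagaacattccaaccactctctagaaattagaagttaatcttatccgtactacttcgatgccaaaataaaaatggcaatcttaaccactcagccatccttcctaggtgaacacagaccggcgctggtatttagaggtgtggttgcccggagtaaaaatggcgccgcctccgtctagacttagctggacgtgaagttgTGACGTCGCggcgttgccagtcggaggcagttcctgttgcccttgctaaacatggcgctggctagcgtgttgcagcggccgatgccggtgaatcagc
Psmb6: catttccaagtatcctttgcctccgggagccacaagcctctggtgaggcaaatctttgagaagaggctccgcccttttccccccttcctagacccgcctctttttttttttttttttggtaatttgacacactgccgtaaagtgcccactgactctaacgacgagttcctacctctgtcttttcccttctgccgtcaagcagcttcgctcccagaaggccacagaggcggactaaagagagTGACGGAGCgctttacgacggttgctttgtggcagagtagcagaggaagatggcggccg
Psmb8: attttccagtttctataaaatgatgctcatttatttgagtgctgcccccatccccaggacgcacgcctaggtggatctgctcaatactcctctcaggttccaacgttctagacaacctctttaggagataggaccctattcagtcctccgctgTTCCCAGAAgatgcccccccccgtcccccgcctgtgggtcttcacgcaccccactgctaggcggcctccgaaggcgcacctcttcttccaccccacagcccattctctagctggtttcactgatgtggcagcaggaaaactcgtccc
Psme1: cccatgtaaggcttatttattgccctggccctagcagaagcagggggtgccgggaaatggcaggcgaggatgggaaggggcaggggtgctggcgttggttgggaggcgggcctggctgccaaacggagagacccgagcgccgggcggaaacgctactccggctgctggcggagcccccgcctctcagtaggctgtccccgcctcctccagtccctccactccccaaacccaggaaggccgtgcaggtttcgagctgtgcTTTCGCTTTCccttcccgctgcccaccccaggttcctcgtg
Relative to the start, the marked letters begin at position -47 in Psmb5, -9 in Psmb6, -97 in Psmb8 and 9 in Psme1.

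RefSeq promoters were matched for 42 members, and both strands were searched. The antioxidant response core was found in 6 of the 42 promoters (14.3%), against 14% of 27025 promoters of all genes. In the constitutive set it was in 4 of the 25 promoters matched (16%). The GAS motif was in 1 of the 3 immunoproteasome promoters, that of Psmb8. Of the 2 promoters of Psme1 and Psme2, 1 held the IRF motif, that of Psme1. The IRF motif was found in 5 members (11.9%, against 3.99% of all promoters): Psmd4, Psmd9, Psmb3, Psmg4 and Psme1. The GAS motif was found in 3 members (7.14%, against 9.55%), CCAAT in 15 (35.7%, against 41.1%) and the E-box CACGTG in 4 (9.52%, against 8.09%). The GAS motif and the E-box read the same on both strands and were counted a single time per position, and matches to different motifs did not overlap in these promoters. None of the windows of Psmb8, Psmb9 and Psmb10 held the IRF letters, which says only that these letters are not in these windows.

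Ddx55 itself was at 19.5 and 18.9 CPM in KO against 45.3 and 51.2 CPM in WT at 0 h, 17.9 and 17.1 against 68.8 and 64.1 CPM at 8 h, and 14.7 and 14.4 against 52.9 and 55.2 CPM at 24 h. It was lower in KO at each time (log2 fold changes -1.33, -1.92 and -1.89, adjusted p at most 9.48e-06, edgeR quasi-likelihood test). The T cell markers summed to 4590 and 4154 CPM in KO against 4587 and 4610 CPM in WT at 0 h, and B cell markers to at most 6.11 CPM in any library. Markers of other cells stood apart by genotype. At 0 h the 7 markers of neutrophils and granulocyte progenitors summed to 445 and 422 CPM in KO libraries and 50.2 and 10.2 CPM in WT libraries, and 5 of 7 were called higher. The 5 markers of basophils and mast cells summed to 259 and 711 CPM in KO and 30.4 and 10.3 CPM in WT, and 0 of 5 were called by edgeR, with unadjusted p between 0.00445 and 0.0139. The 6 markers of CD8 T and NK cells summed to 181 and 92.3 CPM in KO and 37.1 and 31.5 CPM in WT, with 3 of 6 called higher. Of 4 myeloid markers 1, of 3 tested dendritic cell markers 1 and of 2 tested B cell markers 1 were called higher. Among these lists Ltf was at 0 in 8 libraries, S100a8, S100a9 and Elane in 3 each, and no basophil or mast cell marker in any. The part of these cells in the results below was not tested. The fits without numbered KO libraries given there cannot test it, since both KO libraries were above both WT libraries in these 3 sums. In these bulk samples, fewer cells of a type and less RNA per cell cannot be told apart.

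After 8 h on the coated plates the members had separated into 2 patterns in KO and in WT cells. No group was kept for 8 h or 24 h without the antibodies. Stimulation and time in culture therefore cannot be told apart in any comparison between times. In KO cells 41 of 48 members rose and 3 fell, while of all genes tested 61.5% were called, 28.6% rising and 32.9% falling. In WT cells 42 members rose and 4 fell, while of all genes 61.9% were called, 28.3% rising and 33.6% falling. The median log2 fold change of the members was 1.08 in KO and 1.36 in WT, while that of all genes was -0.10 in KO and -0.15 in WT. Of the constitutive set, 30 of 31 members rose in each genotype, and the exception in both was Psmb1, a beta subunit of the core, at a log2 fold change of 0.09 in KO and 0.22 in WT. The 3 immunoproteasome subunits were the members that fell in KO, and in WT they fell together with Psme2b.

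**Figure D1:**
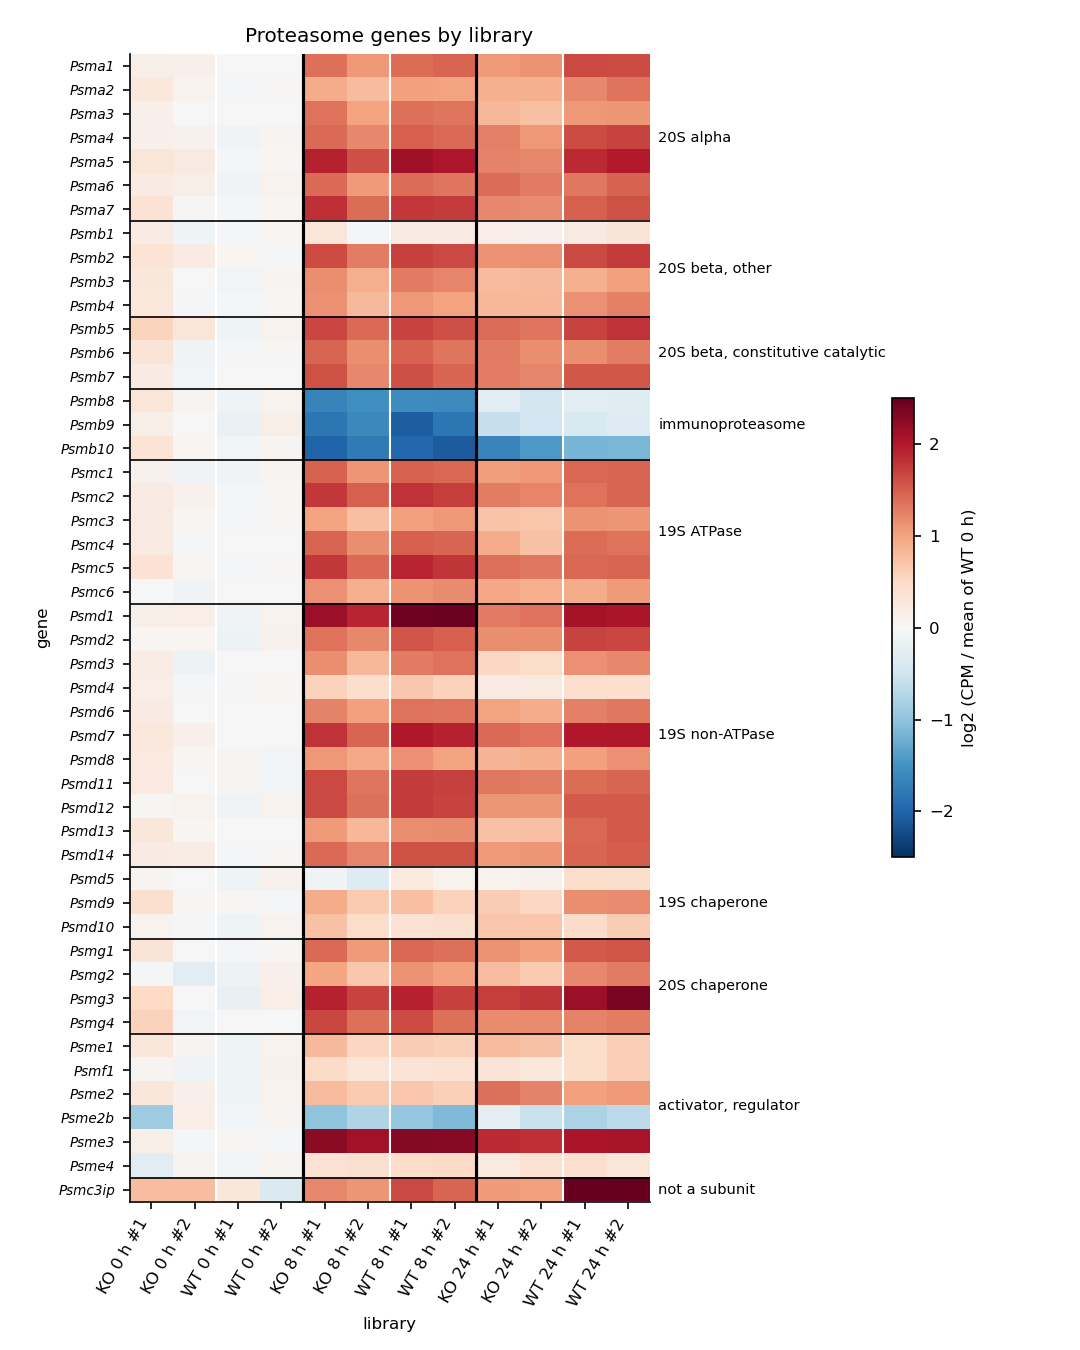
Level of the 48 tested members (rows, grouped by role) in each of the 12 libraries (columns, KO left of WT at each time), as log2 of CPM over the mean of the 2 WT libraries at 0 h. Members of the constitutive set other than Psmb1 are red at 8 h and 24 h, Psmb8, Psmb9 and Psmb10 are blue, and the 24 h columns are paler in KO than in WT for most members; the 2 WT 24 h values of Psmc3ip lie beyond the colour scale.

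Among the alpha ring genes, Psma5 had 60.5 and 57.3 CPM at 0 h, 187 and 150.1 CPM at 8 h, and 116 and 113 CPM at 24 h in KO libraries. In WT libraries it had 47.5 and 51.2 CPM at 0 h, 214 and 199.6 CPM at 8 h, and 180.5 and 196 CPM at 24 h. The 8 h and 0 h libraries of Psma5 did not overlap in either genotype, and it rose 2.86-fold in KO and 4.19-fold in WT by 8 h. All 7 alpha subunits, which form the gated outer rings of the barrel, rose in both genotypes, between 1.61-fold and 2.86-fold in KO and between 2.03-fold and 4.19-fold in WT.

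Among the genes of the regulatory particle, Psmd1, a large scaffold subunit of its base, had the highest fold change by 8 h in both genotypes. Psmd1 had 62.1 and 63.0 CPM at 0 h, 248.5 and 212 CPM at 8 h, and 139 and 145 CPM at 24 h in KO, and 52.7 and 60.01 CPM, 304 and 308 CPM, and 239 and 232 CPM at the same times in WT. It rose 3.68-fold in KO and 5.43-fold in WT by 8 h. All 6 ATPases, which thread substrates into the barrel, and all 11 non-ATPases rose in each genotype. Psmc5 and Psmc2 led the ATPases in WT, at 3.60-fold and 3.39-fold, and Psmc2 led in KO at 2.77-fold. Psmd7, the scaffold partner of the deubiquitinase Psmd14, rose 2.72-fold in KO and 3.91-fold in WT, and Psmd14 rose 2.18-fold in KO and 3.01-fold in WT. Psmd4, a ubiquitin receptor, had the smallest rise of the non-ATPases in both genotypes, 1.36-fold in KO and 1.54-fold in WT.

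Chaperones of the core particle (Psmg1 to Psmg4), which pair up to build the alpha ring, all rose, between 1.98-fold and 2.93-fold in KO and between 2.10-fold and 3.53-fold in WT. Of the 3 chaperones of the regulatory particle, Psmd9 and Psmd10 rose by at most 1.49-fold in KO and 1.59-fold in WT, and Psmd5 did not pass the test in either genotype. Psme3, which encodes the nuclear activator PA28 gamma, rose most among the activators, by 4.35-fold in KO and 4.86-fold in WT. Its libraries were at 145.5 and 129 CPM at 0 h, 627 and 566 CPM at 8 h and 480.0 and 470.3 CPM at 24 h in KO, and at 134 and 129.9, 647.5 and 637, and 542 and 551 CPM in WT. Psme4, the activator PA200, and Psmf1, the inhibitor PI31, rose at most 1.39-fold in KO and 1.38-fold in WT. Psme1 and Psme2, which encode the interferon-inducible activator PA28, rose 1.42-fold and 1.43-fold in KO and 1.53-fold and 1.55-fold in WT. Psme2b is an intronless copy of Psme2, so that counts of the pair are uncertain. It was not called in KO (log2 fold change -0.61) and fell in WT (-1.03 ± 0.285, SE), a call lost without the second WT library at 0 h (adjusted p = 0.0597) or either WT library at 8 h (adjusted p = 0.0544 and 0.063).

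**Figure D2:**
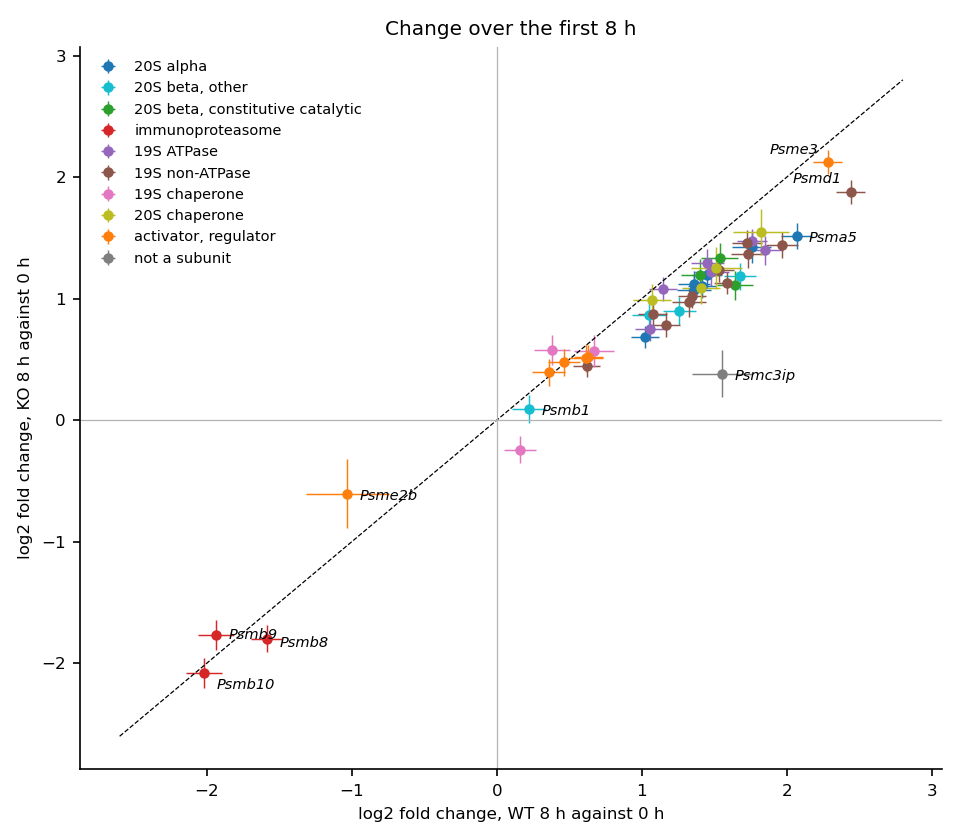
Log2 fold change from 0 h to 8 h of each tested member in KO cells (vertical axis) against WT cells (horizontal axis), coloured by role, with SE bars and the line of equal change dashed. Psme3 and Psmd1 lie at the upper right, Psmb8, Psmb9 and Psmb10 stand apart at the lower left, and the 31 members of the constitutive set lie below the dashed line.

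The immunoproteasome subunits went the other way. Psmb8 (chr17:34197721-34201454) lies close to Psmb9 (chr17:34181987-34187764) in the MHC region, and Psmb10 (chr8:105935735-105938444) lies elsewhere. In KO libraries Psmb8 had 274.5 and 232 CPM at 0 h, 69.3 and 76.3 CPM at 8 h, and 181 and 159.9 CPM at 24 h. In WT libraries it had 208 and 235 CPM at 0 h, 73.9 and 73.4 CPM at 8 h, and 184 and 180.3 CPM at 24 h. The 3 times did not overlap within either genotype.

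Psmb9 had 185 and 167 CPM at 0 h, 48.3 and 55.2 CPM at 8 h, and 112.5 and 121 CPM at 24 h in KO, and 149.7 and 186, 40.0 and 47.7, and 129 and 135 CPM in WT. Psmb10 had 169.5 and 139, 33.5 and 39.6, and 42.6 and 49.8 CPM in KO, and 129 and 141, 34.5 and 31.9, and 59.9 and 61.1 CPM in WT. At 8 h each of the 3 genes was below every 0 h library of its genotype. Psmb8 fell by 1.80 on the log2 scale in KO and by 1.59 in WT, Psmb9 fell by 1.77 in KO and by 1.94 in WT, and Psmb10 fell by 2.08 in KO and by 2.02 in WT (SE between 0.108 and 0.124). By 8 h their levels were between 0.237 and 0.294 of those at 0 h in KO and between 0.247 and 0.333 in WT.

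Between 8 h and 24 h the 3 genes recovered in part. In KO 4 members rose and 12 fell, while of all genes 34.4% were called, 18.9% rising and 15.6% falling. In WT 8 members rose and 6 fell, while of all genes 43.3% were called, 24% rising and 19.3% falling. These comparisons use the same 8 h libraries as those with 0 h. Psmb8 rose 2.34-fold in KO and 2.47-fold in WT, and Psmb9 rose 2.26-fold in KO and 3.01-fold in WT. Psmb10 rose 1.26-fold in KO (adjusted p = 0.0436, edgeR quasi-likelihood test) and 1.82-fold in WT (adjusted p = 4.5e-05). The KO call of Psmb10 was lost in 13 of 21 alternatives, among them RLE size factors (log2 fold change 0.30, adjusted p = 0.065) and DESeq2 (adjusted p = 0.079). It was also lost in 8 of the 12 fits that left out 1 library. Over the alternatives its log2 fold change in KO lay between 0.22 and 0.46. None of the 3 constitutive catalytic subunits was called in this interval. Psme2 also rose, by 0.58 on the log2 scale in KO and 0.41 in WT. The members of the constitutive set that fell numbered 11 of 31 in KO, led by Psmd1 (log2 fold change -0.70 ± 0.0966, SE), and 6 of 31 in WT, led by Psmc5 (-0.41 ± 0.119) and Psmd1 (-0.38 ± 0.0957). In WT, Psma2 and Psmd13 of the constitutive set rose (0.26 and 0.32). The call of Psma2 was lost in 10 of 21 alternatives, among them RLE size factors (adjusted p = 0.0708) and DESeq2 (adjusted p = 0.0714). The calls of Psma2 and Psmd13 were lost without the second WT library at 24 h or either WT library at 8 h, and that of Psmc5 without either WT library at 24 h or the first at 8 h. The KO count of all members called in this interval was 16, and it moved with the library. The median log2 fold change of the constitutive set in KO was -0.21. It was -0.09 without the KO libraries numbered 1 and -0.34 without those numbered 2. The WT count was 14, and the median log2 fold change of all members in WT was 0.02. Without any 1 of the 4 WT libraries compared this median lay between -0.01 and 0.06. Fewer members and fewer of all genes were then called.

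**Figure D3:**
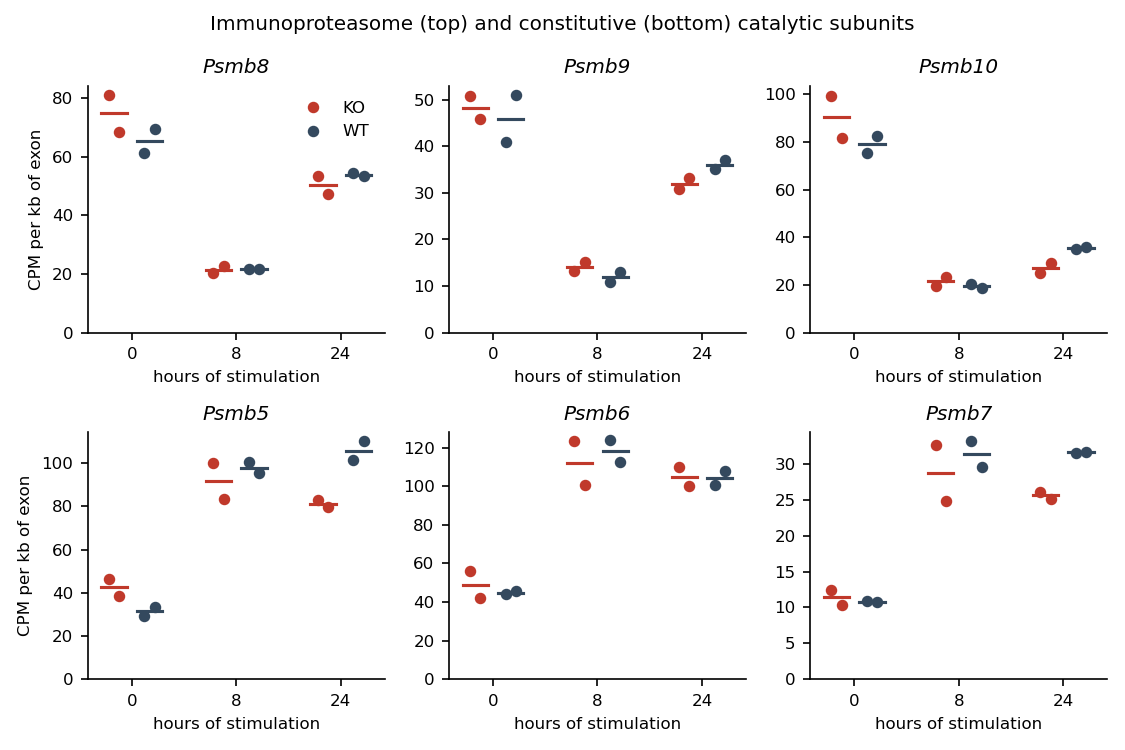
CPM per kilobase of exon of the immunoproteasome subunits (top row) and of the constitutive subunits they replace (bottom row) at 0, 8 and 24 h, 1 point per library with the group mean as a bar, KO left of WT. Psmb8, Psmb9 and Psmb10 are high at 0 h, low at 8 h and intermediate at 24 h, and Psmb5, Psmb6 and Psmb7 are low at 0 h.

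To compare levels between genes, CPM were divided by the length of all exons of a gene. At 0 h Psmb10 had 90.5 ± 12.6 CPM per kb in KO and 79.0 ± 5.02 in WT (SD, n = 2 each), which ranked it 3 among the 48 members after Psme1 and Psme2. Psmb8 ranked 5, and Psmb9 ranked 15 in KO and 12 in WT. This order rests on the length used. With the length of the longest coding transcript, a choice made after the data were seen, Psmb8 ranked 3 in KO and in WT. Psmb9 then ranked 6 in KO and 5 in WT, Psmb10 ranked 7 in KO and 8 in WT, and Psme1 and Psme2 still ranked 1 and 2. At 8 h Psmb8, Psmb10 and Psmb9 ranked 40, 41 and 42 in KO and 38, 41 and 43 in WT. Psmb5 had 46.4 and 38.5 CPM per kb in KO and 29.2 and 33.5 in WT at 0 h, 99.98 and 83.4 in KO and 100.6 and 95.4 in WT at 8 h, and 82.8 and 79.6 in KO and 101.3 and 110.2 in WT at 24 h. The KO libraries of Psmb5 lay above the WT libraries at 0 h and below them at 24 h. Psmb6 had 55.8 and 42.0 CPM per kb in KO and 43.9 and 45.7 in WT at 0 h, and Psmb7 had 12.5 and 10.4 in KO and 10.95 and 10.7 in WT.

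The share of the 3 immunoproteasome subunits in the summed level per kb of the 6 catalytic subunits gives the balance between the particle types as far as mRNA shows it. It was 66.9% and 68.3% in KO and 67.9% and 69.3% in WT at 0 h. At 8 h it was 17.3% and 22.6% in KO and 17.1% and 18.4% in WT, and at 24 h 33.3% and 34.9% in KO and 34.8% and 33.5% in WT. The genotypes overlapped at each time, and the times did not overlap. Not divided by length, the share was 77.6% and 77.8% at 0 h, 29.4% and 26.6% at 8 h and 48.3% and 48.4% at 24 h, each pair being the KO and then the WT mean. Within pairs, the ratio of Psmb8 to Psmb5 averaged 1.77 ± 0.0199 in KO and 2.09 ± 0.0251 in WT at 0 h, 0.238 ± 0.0464 in KO and 0.222 ± 0.00729 in WT at 8 h, and 0.621 ± 0.0382 in KO and 0.510 ± 0.0372 in WT at 24 h (SD, n = 2 each). The KO libraries were lower than the WT libraries in this ratio at 0 h and higher at 24 h. The ratio of Psmb9 to Psmb6 went the other way at 24 h, with 0.305 ± 0.0357 in KO and 0.345 ± 0.00458 in WT and every KO library below the WT libraries, and at 0 h the libraries overlapped, with 0.998 ± 0.128 in KO and 1.02 ± 0.129 in WT. The ratio of Psmb10 to Psmb7 averaged 7.92 ± 0.0571 in KO and 7.30 ± 0.582 in WT at 0 h, and 1.06 ± 0.147 and 1.12 ± 0.0113 at 24 h. With the longest coding transcript, the ratio of Psmb8 to Psmb5 was 3.67 in KO and 4.34 in WT at 0 h and 1.29 in KO and 1.06 in WT at 24 h, and that of Psmb10 to Psmb7 was 3.49 in KO and 3.22 in WT at 0 h. The size of each ratio therefore depends on the length used, while the order of libraries within a ratio does not. These shares and ratios are descriptions and were not tested.

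In unstimulated cells KO and WT differed little in these genes. Of 48 members 1 was called higher in KO at 0 h and none lower, while of all genes 5.7% were called, 4.63% higher and 1.07% lower. The call was Psmc3ip, at 4.63 and 4.61 CPM in KO against 3.31 and 2.11 CPM in WT (log2 fold change 0.77 ± 0.213, SE, adjusted p = 0.0481, edgeR quasi-likelihood test). It was lost in 14 of 21 alternatives, among them DESeq2 (adjusted p = 0.0644) and 10 of the 12 fits that left out 1 library. Over the alternatives its log2 fold change lay between 0.51 and 1.16. Log2 fold changes were above 0 for 43 members, with a median of 0.14 against -0.03 for all genes. An unadjusted p below 0.05 was found for 5 members, and the share of all genes at that level was not counted. Psmb5, the constitutive subunit with chymotrypsin-like activity, was nearest to the threshold, at 41.7 and 34.6 CPM in KO against 26.2 and 30.2 CPM in WT (log2 fold change 0.44 ± 0.122, adjusted p = 0.0506). It passed with RLE size factors (adjusted p = 0.0416) and with DESeq2 (adjusted p = 0.029). The 2 KO libraries were themselves apart, since 44 of 48 members were higher in the first than in the second. The median difference was 0.18 on the log2 scale, where all genes had a median of 0.04. Without the KO libraries numbered 2 the count of calls was 9, while the share of all genes called was 11.5%, and without those numbered 1 it was 0, while that share was 5.94%.

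At 8 h 1 member was called lower in KO and none higher, while of all genes 2.65% were called, 0.746% lower and 1.9% higher. Psmd1 was at 248.5 and 212 CPM in KO and 304 and 308 CPM in WT (log2 fold change -0.41 ± 0.0958, SE, adjusted p = 0.0342), and the call was lost in 9 of 21 alternatives. These included leaving out the second KO library at 8 h (-0.30, adjusted p = 0.244), the first or second WT library at 8 h (adjusted p = 0.212 and 0.206) and any 1 library at 24 h (adjusted p between 0.0508 and 0.059). All 31 members of the constitutive set had log2 fold changes below 0, with a median of -0.17 against -0.001 for all genes. An unadjusted p below 0.05 was found for 7 of them, and the share of all genes at that level was not counted. Psmb8, Psmb9 and Psmb10 were at -0.02, 0.24 and 0.14 and were not called. The size of the difference at 8 h moved with the library. The first KO library was higher than the second in 43 of 48 members, by a median of 0.26 on the log2 scale, where all genes had a median of 0. Without the KO libraries numbered 1, 19 members were called lower, while 3.26% of all genes were. Without those numbered 2, none was called, while 2.81% of all genes were, and 9 of the 31 constitutive members turned positive. The KO sums of basophil and mast cell markers at 8 h were 94.1 CPM in the first library and 327 CPM in the second, against 8.49 and 5.10 CPM in WT. Granulocyte progenitor sums were 10.2 and 24.8 CPM in KO against 0.662 and 0.410 CPM in WT. Myeloid sums ran the other way, at 43.4 and 22.6 CPM in KO against 14.3 and 13.2 CPM in WT. So did CD8 T and NK sums, at 38.2 and 25.8 CPM against 9.98 and 9.49 CPM. The part of these cells in the difference was not tested.

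At 24 h most members were lower in KO. Of the 48, 27 were called lower and 1 higher, against 20.7% and 17.9% of all genes, and the 28 calls were 58.3% of members, against 38.5% of all genes. The median log2 fold change of the members was -0.34, against 0.02 for all genes. In 39 members every KO library was below every WT library, and in 4 every KO library was above. The same count was not made over all genes, so it has no background here. The KO libraries stood close together, with a median difference of 0.03 on the log2 scale. The median log2 fold change of the members was -0.33 without the KO libraries numbered 1 and -0.34 without those numbered 2. Without any 1 of the 4 libraries at 24 h it lay between -0.38 and -0.30. Fewer members and fewer of all genes were then called, where a lone library is assumed to vary like the other groups.

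**Figure D4:**
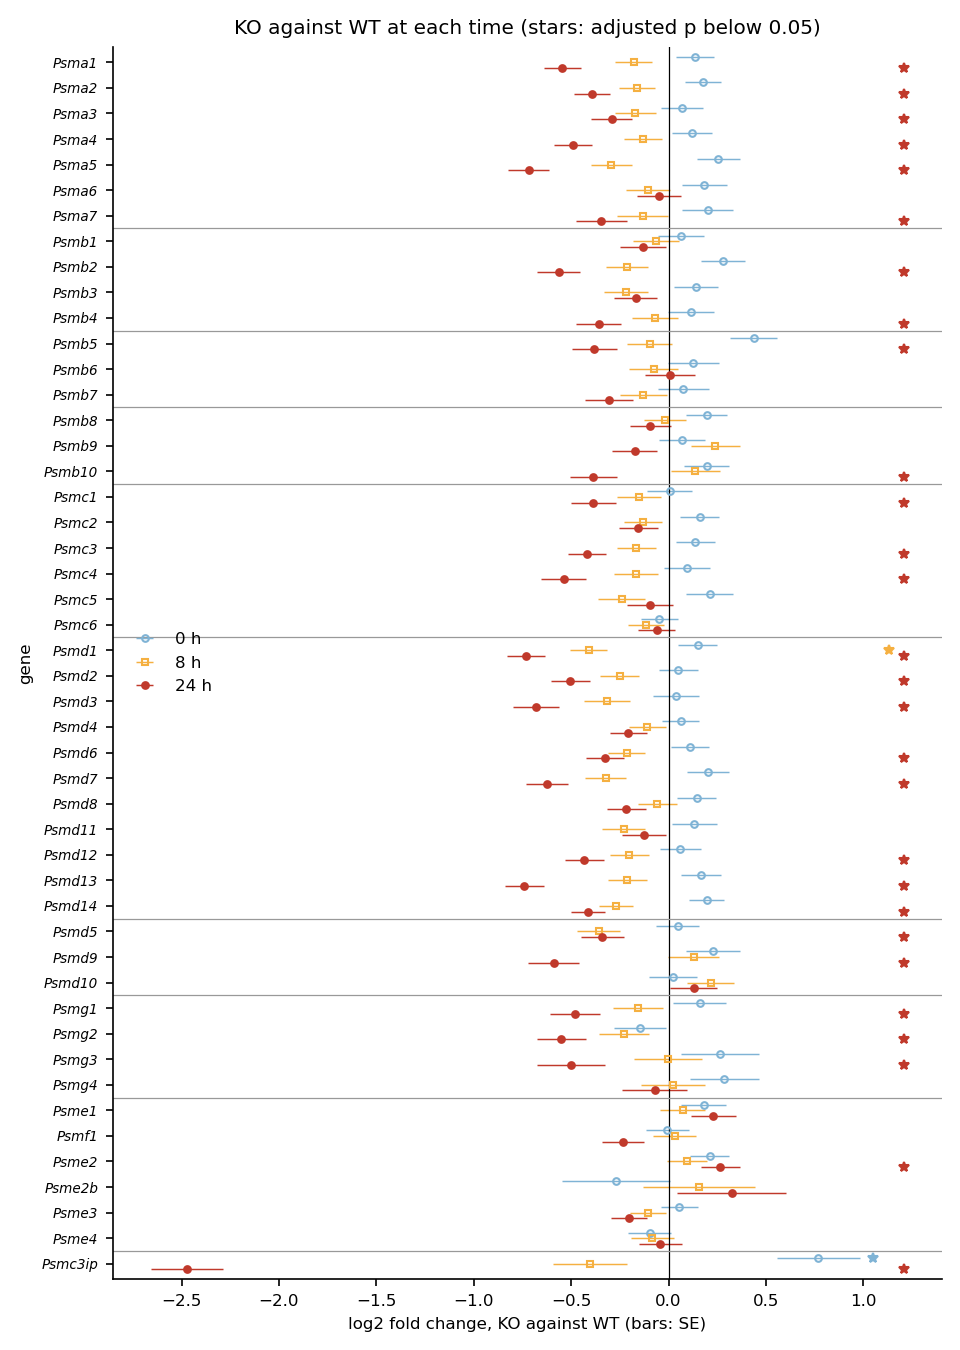
Log2 fold change of KO against WT with SE bars for each tested member at 0 h (open circles), 8 h (open squares) and 24 h (filled circles), with members grouped by role and stars at the right for adjusted p below 0.05. Most filled circles lie left of 0, and the exceptions to the right of 0 are Psmb6, Psmd10, Psme1, Psme2 and Psme2b.

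The core particle accounted for 9 of the calls in the constitutive set. Of the 7 alpha subunits 6 were lower, between 0.608 and 0.816 of the WT level, and Psma6 was not called (log2 fold change -0.05). Psma5 had 116 and 113 CPM in KO against 180.5 and 196 CPM in WT (log2 fold change -0.72 ± 0.105, SE, adjusted p = 7.93e-05), and Psma1 had 139 and 143 CPM against 207 and 205 CPM (-0.55 ± 0.0944, adjusted p = 0.00034). Of the beta subunits that are not replaced, Psmb2 and Psmb4 were lower (-0.57 and -0.36). Among the constitutive catalytic subunits Psmb5 was lower, with 74.5 and 71.6 CPM in KO against 91.1 and 99.1 CPM in WT (-0.38 ± 0.116, adjusted p = 0.0173), a call lost without the first or second KO library or the second WT library at 24 h (adjusted p = 0.0691, 0.103 and 0.125). Psmb7 was at -0.31 ± 0.123 (adjusted p = 0.0642) and passed with RLE size factors. Psmb6 was at 0.01 ± 0.128, with 205.5 and 187 CPM in KO against 189 and 202 CPM in WT, and the libraries overlapped.

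In the regulatory particle 8 of 11 non-ATPases and 3 of 6 ATPases were lower. Psmd13, a lid subunit, had 109.5 and 112 CPM in KO against 179 and 191 CPM in WT (log2 fold change -0.74 ± 0.101, SE, adjusted p = 4.13e-05). Psmd1 had 139 and 145 CPM against 239 and 232 CPM (-0.73 ± 0.0966, adjusted p = 3.08e-05), and Psmd7 had 171 and 163 CPM against 257 and 257 CPM (-0.62 ± 0.106, adjusted p = 0.000294). The KO and WT libraries of these 3 genes did not overlap. The non-ATPases that were not called were Psmd4, Psmd8 and Psmd11, the largest of them at -0.22. Psmc4 led the ATPases (-0.54 ± 0.116, adjusted p = 0.00194), followed by Psmc3 and Psmc1 (-0.42 and -0.39), while Psmc2, Psmc5 and Psmc6 lay between -0.06 and -0.16.

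Assembly chaperones followed the particles they build in being mostly lower. Psmg1, Psmg2 and Psmg3 were called lower (log2 fold changes -0.48, -0.55 and -0.50), and Psmg4 was not (-0.07). Psmd9 and Psmd5 were called lower (-0.59 and -0.34), and Psmd10 was not (0.13). The calls of Psmd5 and Psmg3, like those of Psmb4 and Psmc1, were lost without any 1 of the 4 libraries at 24 h (adjusted p between 0.0502 and 0.209), and that of Psmg1 without the second KO library (adjusted p = 0.0689). Of the activators and regulators none was called lower. Psme3, Psmf1 and Psme4 were at -0.20, -0.23 and -0.04. Psme2 was the member called higher, with 522 and 474 CPM in KO against 407.5 and 421 CPM in WT (0.27 ± 0.101, adjusted p = 0.0498), and the call was lost with RLE size factors (adjusted p = 0.0763), with DESeq2 (adjusted p = 0.0619) and without any 1 of the 4 libraries at 24 h (adjusted p up to 0.255). Psme1, its partner in PA28, was at 0.23 ± 0.115 (adjusted p = 0.13).

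Among the immunoproteasome subunits Psmb10 was lower at 24 h, with 42.6 and 49.8 CPM in KO against 59.9 and 61.1 CPM in WT (log2 fold change -0.39 ± 0.12, SE, adjusted p = 0.0192). Its call was lost without the first KO library at 24 h (-0.27, adjusted p = 0.202) and without either WT library (adjusted p = 0.0694 and 0.088). Psmb8 was at -0.09 ± 0.105 and Psmb9 at -0.17 ± 0.118, and neither was called (adjusted p = 0.521 and 0.269). Psmc3ip, the symbol match that is no subunit, had the largest difference of all, with 5.67 and 5.499 CPM in KO against 30.1 and 31.9 CPM in WT (-2.47 ± 0.186, adjusted p = 1.13e-07). Its exons overlap those of Mlx on the other strand over 385 bases. Also on the other strand, exons of Psmd13 overlap Sirt3 over 342 bases and those of Psmd9 overlap a noncoding gene over 1849 bases. Among the catalytic subunits, exons of Psmb9 overlap Tap1 over 212 bases, again on the other strand. So do those of Psmb8 with Gm20496 over 498 bases and those of Psmb7 with Nek6 over 405 bases. The labels do not say whether counting used strand. On the same strand, which strand-aware counting does not separate, exons of Psmd1 overlap Gm21972 over 301 bases, those of Psmg3 overlap Gm26938 over 280 bases and those of Psmb5 overlap Mir686 over 109 bases.

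At 24 h the 5 basophil and mast cell markers were all called higher in KO, with sums of 140.2 and 524 CPM against 4.31 and 3.68 CPM in WT. The 3 of 3 tested dendritic cell markers were called higher, with sums of 18.5 and 14.8 CPM against 2.16 and 1.35 CPM. Most of these KO sums was Zbtb46, at 16.0 and 13.3 CPM, while Flt3 and Itgax had at most 1.47 CPM. In KO the mean of Zbtb46 rose from 1.75 CPM at 0 h to 14.7 CPM at 24 h. Over the same time Itgax fell from 8.05 to 1.30 CPM and Flt3 from 2.07 to 0.597 CPM. The granulocyte progenitor markers summed to 9.48 and 35.3 CPM in KO against 0.323 and 0.271 CPM in WT, with 3 of 7 called higher. The T cell markers summed to 3060 and 3019 CPM in KO against 2615 and 2961 CPM in WT. The order of the 2 KO libraries differed between lists. Basophil and mast cell sums and granulocyte progenitor sums were higher in the second library. CD8 T and NK sums (62.8 and 53.4 CPM), myeloid sums (28.1 and 25.1 CPM) and dendritic cell sums were higher in the first. Of the members, 30 of 48 were higher in the first, by a median of 0.03 on the log2 scale, where all genes had 0.001. The part of these cells was not tested.

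The KO effect on most members moved downward over the time course, though few of the changes between neighbouring times passed. Between 0 h and 8 h the change of the KO effect passed for 0 of 48 members in edgeR, against 0.995% of all genes (0.261% upward and 0.733% downward). DESeq2 called 5 members, while it called 2.55% of all genes. In edgeR 17 members had an unadjusted p below 0.05, and the share of all genes at that level was not counted. Between 8 h and 24 h the change of the KO effect passed for 3 members, Psmc3ip, Psmd9 and Psmd13, all downward. These were 6.25% of members, while of all genes 14.4% changed in that interval, 5.49% upward and 8.96% downward. The median change of the constitutive set in this interval was -0.23 on the log2 scale. It was -0.07 without the KO libraries numbered 1 and -0.335 without those numbered 2. From 0 h to 24 h, a comparison added after the values had been seen, 23 of 48 members changed downward and none upward, while of all genes 26.7% changed, 14.8% downward and 11.9% upward. They included Psma5 (change on the log2 scale -0.97 ± 0.151, SE, adjusted p = 0.000253), Psmd13 (-0.91 ± 0.144), Psmd1 (-0.88 ± 0.139), Psmb5 (-0.82 ± 0.168) and Psmb10 (-0.58 ± 0.167). The change was not called for Psmb8 (-0.29 ± 0.148) or Psmb9 (-0.24 ± 0.167), nor for any of the 6 activators and regulators. The 0 h to 8 h and 8 h to 24 h changes share the 8 h libraries.

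The other genes of the pathway were taken from 3 lists. Of 16 tested components and cofactors that do not carry a Psm symbol, 13 rose and 1 fell by 8 h in KO, and likewise in WT, which is 87.5% called, against 61.5% of all genes in KO and 61.9% in WT. Pomp, the maturation factor of the core particle, rose 3.06-fold in KO and 3.22-fold in WT. Txnl1, a thioredoxin-like protein bound to the regulatory particle, rose 2.91-fold in KO and 3.56-fold in WT, and Rad23b, a shuttle for ubiquitinated substrates, rose 2.26-fold and 2.91-fold. At 24 h 5 of the 16 were lower and 1 was higher in KO, which is 37.5% called and near the 38.5% of all genes. Uchl5, a deubiquitinase of the regulatory particle, had 74.5 and 72.0 CPM in KO against 149 and 151 CPM in WT (log2 fold change -1.03 ± 0.102, SE). Ubqln2, a ubiquitin shuttle, was at -1.01 ± 0.101, and Akirin2, which brings proteasomes into the nucleus, was higher at 0.97 ± 0.103.

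Of the 7 genes around NRF1, 4 rose and 2 fell by 8 h in each genotype (85.7% called, against 61.5% of all genes in KO and 61.9% in WT). Nfe2l1 had 95.3 and 98.6, 230.4 and 215, and 239.7 and 234.5 CPM at 0, 8 and 24 h in KO, and 94.9 and 93.8, 228 and 212, and 149 and 142 CPM in WT. It rose 2.30-fold in KO and 2.33-fold in WT by 8 h, and at 24 h its KO libraries lay above its WT libraries (log2 fold change 0.70 ± 0.084, SE). At the same time 20 of the 31 constitutive members were lower in KO and none higher. Any relation between Nfe2l1 mRNA and these members was not tested. Vcp, the segregase that extracts ubiquitinated proteins, was lower in KO at 8 h and 24 h (-0.39 and -0.57), and at 24 h 3 of the 7 genes were higher and 2 lower in KO (71.4% called, against 38.5% of all genes).

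The 10 genes of MHC class I presentation and its regulators were mostly lower at 8 h than at 0 h, with 9 lower and 1 higher in KO and in WT, against 32.9% of all genes lower in KO and 33.6% in WT. At 24 h 9 of the 10 were called higher in KO than in WT and none lower, with a median log2 fold change of 0.66. Of all genes 17.9% were called higher, with a median of 0.02. The gene not called was Erap1, a peptide-trimming protease (0.19). With the KO libraries numbered 1 or those numbered 2 left out, 8 of 10 were called higher. H2-K1, a class I heavy chain, had 2692 and 2643 CPM in KO against 1111 and 1260 CPM in WT (1.17 ± 0.119, SE), Tap2, a subunit of the peptide transporter, had 232 and 219 CPM against 105 and 115 CPM (1.03 ± 0.107), and B2m had 1614 and 1520 CPM against 746 and 886 CPM (0.94 ± 0.114). Nlrc5, the transactivator of class I genes, was higher at 0.73 ± 0.131, and Irf1, an interferon-response factor, at 0.58 ± 0.0978. Over the same libraries Psmb8, Psmb9 and Psmb10 were at -0.09, -0.17 and -0.39. The difference between the lists was not tested.

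**Figure D5:**
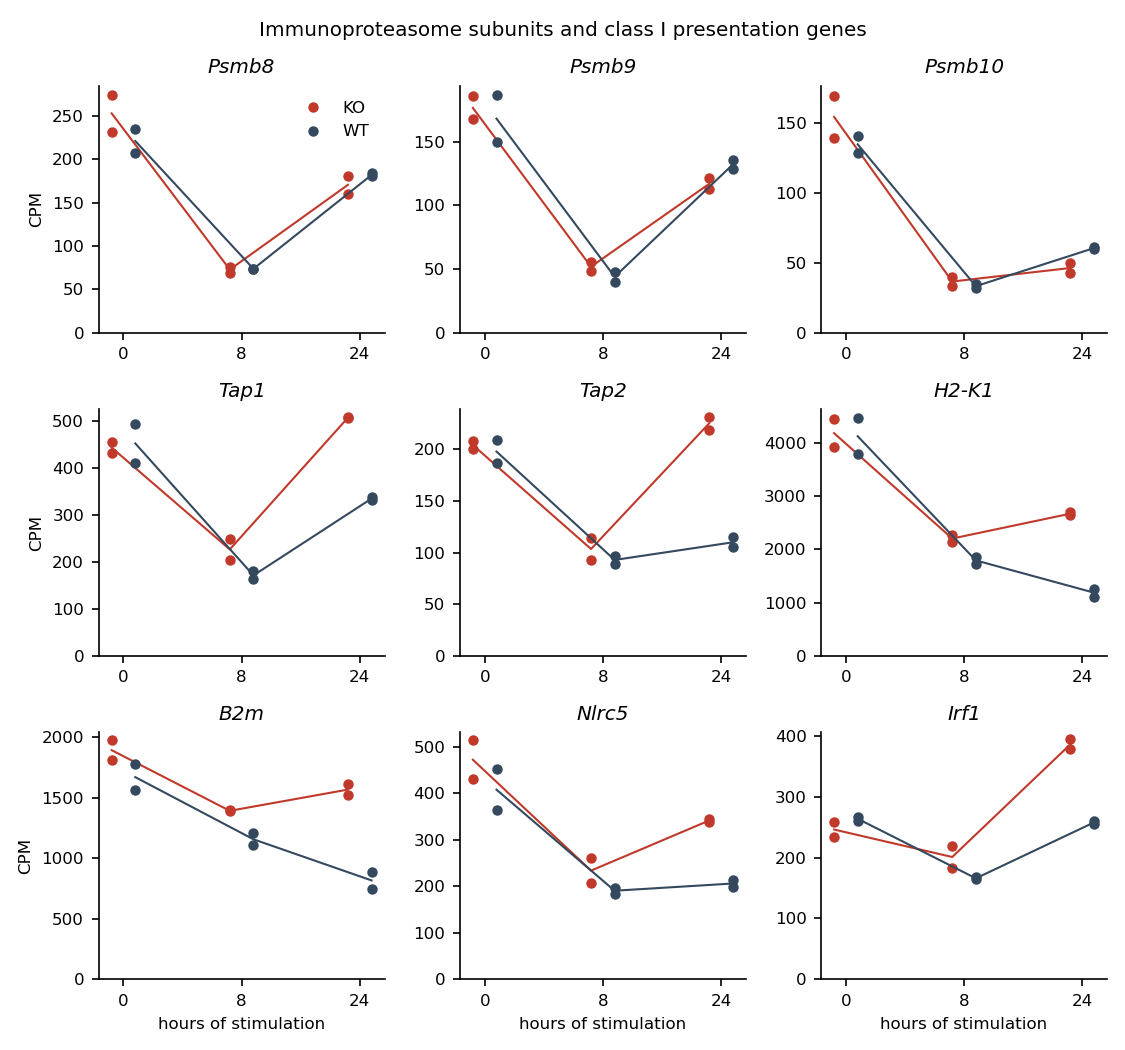
CPM of the 3 immunoproteasome subunits (top row) and of 6 class I presentation genes at 0, 8 and 24 h, 1 point per library, with lines through the group means, KO left of WT. At 24 h the KO points lie above the WT points for Tap1, Tap2, H2-K1, B2m, Nlrc5 and Irf1, below them for Psmb9 and Psmb10, and overlapping with them for Psmb8. The 3 times are evenly spaced on the axis.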

How the data were processed

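Total RNA depleted of ribosomal RNA was sequenced as stranded, paired reads of 150 bases, per the labels' protocols. The authors' deposited gene table holds raw counts, whole numbers with no normalization. The submitters' processing notes list STAR 2.7.1a, fastp 0.12.4 and mm10, and do not say what each was used for. The counter, its annotation and whether it used strand or molecular identifiers: not given in the sources used here. IDs were matched to GENCODE M21 (54165 of 54232).

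Counts were analysed in R 4.3.3 with edgeR 4.0.16: filterByExpr by group (minimum count of 10, total of 15) kept 15679 genes, with TMM factors and a robust quasi-likelihood fit of 6 group means with 6 residual degrees of freedom. Tests were two-sided, and p-values were Benjamini-Hochberg adjusted over all genes tested, with 0.05 as the threshold. SE is the absolute log2 fold change over the square root of F. CPM uses TMM-scaled library sizes, and levels per kb use the union of exons. Counting precision is set by 16810375 to 19126498 counts per library, and reads without molecular identifiers are not independent molecules. Alternatives were RLE factors, library totals, no filter, a CPM filter, DESeq2 1.42.0, a replicate block, only the groups compared and each library left out.

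Members and lists were chosen with earlier results of these data known. Named in every comparison were the 6 catalytic subunits, Psme1 to Psme4 and Psmf1, with up to 3 members per role, and up to 3 genes per list, past the threshold with the smallest p, members called against their role's direction and those filtered out, and Nfe2l1, Nlrc5 and Irf1. Psmb1, Psmb4, Psme2b, Psmd4, Psmd5, Psmd8, Psmd10, Psmd11, Psmd14, Psma6, Psmc1, Psmc2, Psmc6, Psmg4 and Erap1, where outside this rule, were named after their values were seen. Of 17 listed cofactors 16 were matched. The deposited table of repeat loci was not used.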

Additional observations from a re-analysis of the deposited data

Results flagged for a closer look

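The KO effect on Psmd13 changed by -0.53 on the log2 scale between 8 h and 24 h, that on Psmd9 by -0.72 and that on Psmc3ip by -2.07, each past the threshold in the test of the change itself (edgeR quasi-likelihood test, adjusted p = 0.0211, 0.0177 and 8.57e-05). Leaving out 1 library ended the call of Psmd13 in 6 of 12 cases and that of Psmd9 in 5 of 12, with adjusted p up to 0.0876 and 0.0903. From 0 h to 24 h, in a comparison added after the values were seen, the KO effect changed by -0.82 for Psmb5 and by -0.58 for Psmb10 on the log2 scale (adjusted p = 0.00236 and 0.0183), and the change passed for 23 members in all. The call of Psmb5 held in all 21 alternatives, with values between -0.96 and -0.69. That of Psmb10 was lost in 5 of them, among them without the KO libraries numbered 1 (-0.34, adjusted p = 0.0904).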

How the results depend on the processing

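No named member reversed its direction while called, in any of the 21 alternatives. For KO against WT, the 1 call at 0 h became 2 with RLE factors, library totals, no filter, a CPM filter or the replicate block and 0 with only the groups compared, and ran from 0 to 9 with libraries left out. The 1 call at 8 h became 0 with only the groups compared and ran from 0 to 19. The 28 calls at 24 h became 35 with only the groups compared, where 44.8% of all genes were called. The count ran from 18 to 30 with libraries left out. Calls ran from 43 to 48 for WT 8 h against 0 h and from 44 to 46 for KO 8 h against 0 h. The 14 calls of WT 24 h against 8 h became 25 with only the groups compared and ran from 7 to 24, and the 16 of KO 24 h against 8 h ran from 7 to 27. For the difference in KO effect between 8 h and 0 h, library totals gave 1 call, no filter 4 and DESeq2 5, with 0 to 5 when libraries were left out. For that between 24 h and 8 h, no filter gave 5, with 1 to 13. For that between 24 h and 0 h the range was 16 to 33. In these refits a lone library is assumed to vary like the other groups, and the causes were not tested.

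The immunoproteasome share, not divided by length, was 77.6% in KO and 77.8% in WT at 0 h, 29.4% and 26.6% at 8 h and 48.3% and 48.4% at 24 h. With the longest coding transcript, a length chosen after the data were seen, it was 36% in KO and 36.5% in WT at 24 h.

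The labels number the libraries of each group but give no pairing, and the deviations of same-numbered libraries correlated between 0.01 and 0.288. With the number as a replicate block, calls were 2, 1 and 29 for KO against WT at 0, 8 and 24 h, 44 and 18 for KO and 46 and 16 for WT over the 2 intervals, and 0, 4 and 23 for the differences in KO effect between 8 h and 0 h, 24 h and 8 h, and 24 h and 0 h. Depth limits Psma8 and Psmb11, which had at most 8 counts in a library.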
